A study of Mus musculus with 34 samples.

Results

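Chromatin at the promoters of 10 genes that write, copy, remove or read DNA methylation was examined in intestinal cells of wild-type and ApcMin/+ mice. The genes were *Dnmt1*, *Dnmt3a*, *Dnmt3b*, *Uhrf1*, *Tet1*, *Tet2*, *Tet3*, *Mbd1*, *Mbd2* and *Tdg*, taken by name from 21938 protein-coding genes, and each was measured by the mean H3K4me3 signal within 1000 bp of the 5′ end of its gene record (GENCODE M21, mm10). H3K4me3, a histone mark of active promoters, was profiled by CUT&RUN, in which an antibody directs micrococcal nuclease to the marked nucleosomes. There were 2 libraries from wild-type C57BL/6J mice and 2 from C57BL/6J mice heterozygous for the germline ApcMin allele, from villi cells of small intestine that looked normal, with an age of 5 weeks in the labels and 5 to 6 weeks in the design text. The study's methods describe 2 mice of each genotype and no sort for a cell type, and the labels give no other allele or treatment.

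In mammals DNA methyltransferases place a methyl group on the cytosine of CpG dinucleotides, DNMT3A and DNMT3B on unmodified DNA and DNMT1, guided by UHRF1, on DNA that has just been copied. TET dioxygenases oxidize the methyl group, and the glycosylase TDG cuts out oxidized bases so that repair can restore an unmodified cytosine, while MBD proteins bind methylated CpG and recruit repressors. H3K4me3 stands mostly over unmethylated CpG islands at the starts of genes. In the intestine this machinery is known for its part in the turnover of crypt cells and in *Apc*-driven tumors.

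Signal here means read coverage that the authors had scaled to 1 common tag number, from libraries of 1430000 (wild-type 1), 4790000 (wild-type 2), 3700000 (ApcMin/+ 1) and 5470000 tags (ApcMin/+ 2). ApcMin/+ replicate 1 stood apart from the rest: it was the highest of the 4 libraries at 98.6% of the 9931 promoters whose mean signal reached 2, where its median signal was 13.2 against 4.53, 3.06 and 4.18 in the order wild-type 1, wild-type 2 and ApcMin/+ 2. The differences are therefore given as deposited, after centring (the log2 value of the median tested promoter was subtracted within each library), and without that library. Promoters of 13 of 14 enterocyte markers reached a mean signal of 2, against 0 of 10 immune and 0 of 9 mesenchymal markers, 0 of 8 genes silent in the intestine, 1 of 9 secretory markers, 2 of 5 crypt markers and 11 of 12 proliferation genes.

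Of the 10 genes, 7 carried the mark within 1000 bp of the gene 5′ end and 3 did not. *Dnmt1*, *Tet1* and *Tet3* had mean signals of 0.555, 0.219 and 0.421 there, and no enriched region touched their windows, whereas the mark lay at starts that the annotation places further inside these genes. The stretches before both kinds of start are shown because they differ in the dinucleotide that the encoded enzymes act on. Each holds 200 bases in the direction of transcription (reference GRCm38, mm10), with CG in capitals, and ends at the base before an annotated start, except that the *Tet1* stretch ends 188 bp before the RefSeq start because another transcript begins there. The stretches before the unmarked 5′ ends of *Dnmt1* (chr9:20959889-20960088, minus strand) and *Tet3* (chr6:83459085-83459284, minus strand) read as follows.
Dnmt1 gene 5′ end: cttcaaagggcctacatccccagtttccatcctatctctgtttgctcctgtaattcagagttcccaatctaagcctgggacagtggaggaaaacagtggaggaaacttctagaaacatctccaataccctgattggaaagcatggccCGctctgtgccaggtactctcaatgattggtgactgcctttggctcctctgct
Tet3 gene 5′ end: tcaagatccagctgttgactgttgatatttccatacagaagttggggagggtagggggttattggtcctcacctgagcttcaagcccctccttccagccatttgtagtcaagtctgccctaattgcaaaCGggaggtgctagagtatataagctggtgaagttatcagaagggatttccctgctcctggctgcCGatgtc
The marked starts of *Dnmt1*, *Tet1* and *Tet3* lie 6909 bp (chr9:20952980-20953179), 21672 bp (chr10:62887513-62887712) and 2692 bp (chr6:83456393-83456592) downstream of the gene 5′ ends. The *Tet1* start was examined after the values at its 5′ end were seen, and it reached a mean signal of 2 only through ApcMin/+.
Dnmt1 start at +6909: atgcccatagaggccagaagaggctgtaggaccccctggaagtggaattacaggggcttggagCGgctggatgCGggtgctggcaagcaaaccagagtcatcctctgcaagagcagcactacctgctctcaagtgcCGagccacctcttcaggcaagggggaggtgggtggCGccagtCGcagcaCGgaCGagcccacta
Tet1 start at +21672: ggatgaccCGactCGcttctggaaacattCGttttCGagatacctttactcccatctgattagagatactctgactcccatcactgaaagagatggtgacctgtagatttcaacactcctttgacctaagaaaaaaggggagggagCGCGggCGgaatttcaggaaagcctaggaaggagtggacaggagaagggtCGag
Tet3 start at +2692: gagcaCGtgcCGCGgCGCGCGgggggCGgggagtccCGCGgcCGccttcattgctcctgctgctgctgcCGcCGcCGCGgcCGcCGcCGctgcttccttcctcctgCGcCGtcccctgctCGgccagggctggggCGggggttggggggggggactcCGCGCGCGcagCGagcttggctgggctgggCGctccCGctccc
The highest signal of any start of these genes, averaged over the 4 libraries, lay at the RefSeq start of *Tet2*, 749 bp inside the gene (chr3:133544391-133544590, minus strand), and the mark of *Uhrf1* was highest at its inner start (chr17:56304113-56304312, plus strand), 992 bp inside the gene.
Tet2 start at +749: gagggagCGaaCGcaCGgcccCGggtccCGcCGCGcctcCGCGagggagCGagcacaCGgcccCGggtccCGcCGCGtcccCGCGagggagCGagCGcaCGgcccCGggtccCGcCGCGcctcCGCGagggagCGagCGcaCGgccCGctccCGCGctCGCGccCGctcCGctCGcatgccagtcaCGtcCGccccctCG
Uhrf1 start at +992: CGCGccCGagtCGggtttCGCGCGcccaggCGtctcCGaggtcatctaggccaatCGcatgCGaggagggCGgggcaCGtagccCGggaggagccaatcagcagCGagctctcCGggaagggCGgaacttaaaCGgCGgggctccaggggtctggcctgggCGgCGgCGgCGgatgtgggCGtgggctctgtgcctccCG

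The printed stretches held 1 and 2 CG dinucleotides before the unmarked 5′ ends of *Dnmt1* and *Tet3*, and 7, 8 and 28 before the marked starts of *Dnmt1*, *Tet1* and *Tet3*. Counted within 500 bp of the start, the 3 unmarked 5′ ends had 4, 7 and 8 CpG. The marked inner starts had 53 at *Dnmt1*, 59 at *Tet1*, where the wild-type mean stayed below 2, and 127 and 55 at *Tet3*. Inner GENCODE starts whose mean signal did not reach 2 had 158 and 51 at *Dnmt3a* (+1023 and +85721 bp) and 14 and 32 at *Tet1* (+9878 and +28982 bp). The 7 marked 5′ ends ranged from 32 CpG at *Mbd1* to 102 at *Dnmt3b*, around a median of 41 over all 21938 genes. Over all genes, 2.42% of the 4049 gene 5′ ends with at most 8 CpG reached a mean signal of 2, against 72.6% of the 12334 with at least 32. These limits are the highest count of the 3 unmarked 5′ ends and the lowest of the 7 marked ones. Of all gene 5′ ends 45.3% reached a mean signal of 2. Spearman's rho between CpG count and mean signal across the 21938 gene 5′ ends was 0.688, a description over genes that share the same 4 libraries and differ in base composition.

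**Figure D1:**
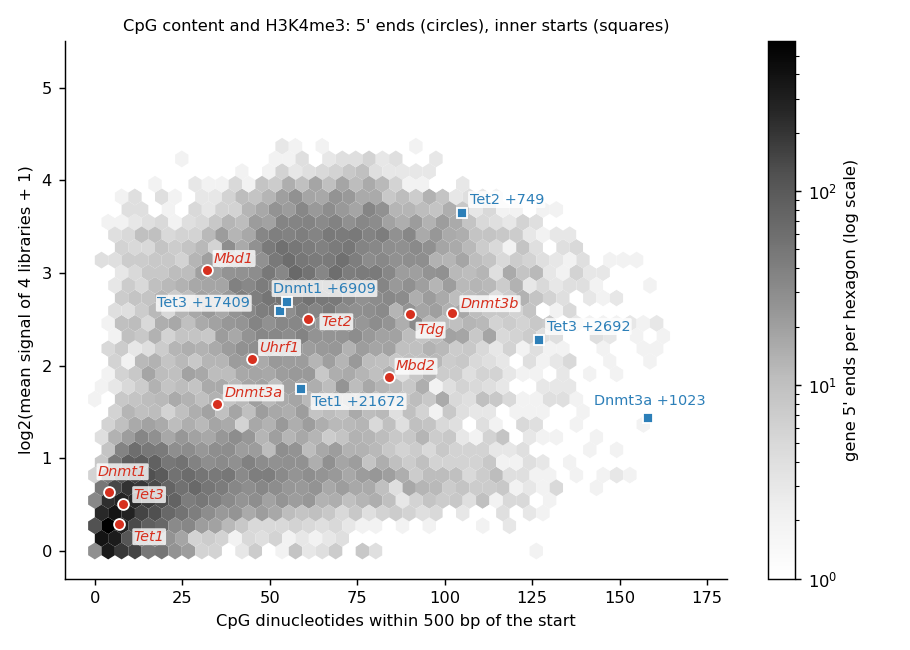
CpG dinucleotides within 500 bp of a start (x axis) against log2(mean signal of the 4 libraries + 1) (y axis) for all 21938 gene 5′ ends (grey hexagons, darker for more genes), for the gene 5′ ends of the 10 genes (red circles) and for inner starts of 5 of them (blue squares, with the distance from the gene 5′ end in bp). *Dnmt1*, *Tet1* and *Tet3* lie at the lower left with 4 to 8 CpG, and the inner starts labelled for them lie to the right and higher. *Dnmt3a* +1023 has 158 CpG, the most of the labelled starts, but a low signal.

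Short motifs were also searched in the 200 bases upstream, on both strands. The E2F-like octamer TTTCGCGC was present before the inner start of *Uhrf1*, 185 to 178 bp upstream, and before none of the other GENCODE or RefSeq starts of the 10 genes. It was found before 0.228% of the 21938 gene 5′ ends, a share that leaves out inner starts. The octamer TTTGGCGC, found before 0.424% of them, stood before none of the starts of the 10 genes. The E-box CACGTG, found in 5.65% of promoters, was present 18 to 13 bp upstream of the 5′ end of *Tdg* and also before the starts of *Tet3* at +2692 bp and *Dnmt3a* at +85721 bp. No TATAAA was found before any gene 5′ end or inner start of the 10 genes, and 9.29% of all promoters held it. These matches describe letters and not binding.

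The maintenance methyltransferase *Dnmt1* (chr9:20907209-20959888, minus strand) was almost unmarked at its gene 5′ end. The signal was 0.349 and 0.741 in wild type and 0.270 and 0.859 in ApcMin/+, here and throughout given as replicate 1 then replicate 2, from 1, 7, 2 and 9 fragments. The groups overlapped, and these levels stood at the 27.6th, 43.6th, 26.9th and 39.0th percentile of all gene 5′ ends in the same library order. At the start at +6909 bp the signal was 4.11 and 2.53 in wild type and 8.28 and 5.24 in ApcMin/+, from 12, 24, 61 and 57 fragments. Both ApcMin/+ libraries were higher there than both wild-type libraries, as at 38.0% of the 11368 GENCODE starts whose mean signal reached 2. The log2 difference was 0.84 ± 0.96 (SE), with an adjusted p of 0.688 in limma, and -0.01 after centring. Without ApcMin/+ replicate 1 it was 0.56. An enriched region of 1700 bp (chr9:20951401-20953100) lay over this start, +6788 to +8487 bp, and within 1000 bp of the start 85.8% of the signal summed over the 4 libraries was downstream of it.

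*Uhrf1* (chr17:56303321-56323486, plus strand), whose protein recognizes hemimethylated DNA and brings in DNMT1, had a signal of 2.57 and 1.60 in wild type and 6.19 and 2.49 in ApcMin/+ at the gene 5′ end. ApcMin/+ replicate 2 was within the wild-type range, so the groups overlapped. The group means were 2.09 ± 0.691 and 4.34 ± 2.62 (SD, n = 2 each), the log2 difference was 0.72 ± 0.74 (SE) with an adjusted p of 0.683 in limma, -0.14 after centring and 0.20 without ApcMin/+ replicate 1. The mark was not centred on the gene 5′ end: 84.6% of the signal was downstream, in a region of 2100 bp that also covered the inner start. Around the GENCODE start at +1027 bp, the highest 20-bp bin of the 4-library average began at -40 bp from that start. In single libraries the highest bin began at -460 and -300 bp in wild type and at -40 and 20 bp in ApcMin/+. The window held 9 and 20 fragments in wild type and 64 and 30 in ApcMin/+, too few in wild type to place a maximum. A shift in its place was not tested. At that start the signal was 3.13 and 2.09 in wild type and 8.68 and 2.74 in ApcMin/+, again with overlap.

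**Figure D2:**
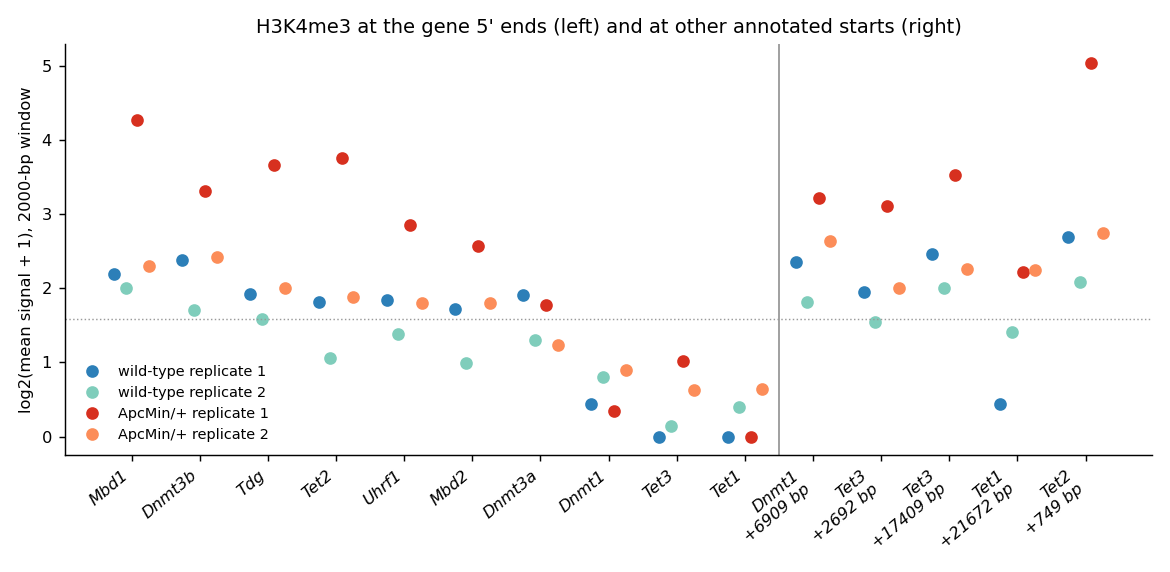
log2(mean signal + 1) in the 2000-bp window (y axis) for the gene 5′ ends of the 10 genes in order of mean signal (left of the line) and for 5 other starts, named by their distance from the gene 5′ end (right), with 1 point per library. The dotted line marks a signal of 2; ApcMin/+ replicate 1 is the highest point at the 6 leftmost genes, and *Dnmt1*, *Tet3* and *Tet1* stay below the line in all 4 libraries.

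*Dnmt3a* (chr12:3806007-3914443, plus strand) and *Dnmt3b* (chr2:153649450-153687730, plus strand) encode the de novo methyltransferases. At *Dnmt3a* the signal was 2.75 and 1.46 in wild type and 2.43 and 1.36 in ApcMin/+, from 8, 14, 18 and 15 fragments, with a mean that just reached the limit of 2 for testing. Both ApcMin/+ libraries lay inside or below the wild-type range. The log2 difference was -0.09 ± 0.61 (SE) with an adjusted p of 0.885 in limma, the only negative one among the 7 tested genes, while the median over all 9931 tested promoters was 0.85. After centring it was -0.95 ± 0.60, both ApcMin/+ libraries were then below both wild-type libraries, as at 14.3% of tested promoters, and the adjusted p was 0.999. Without ApcMin/+ replicate 1 it was -0.36. At *Dnmt3b* the signal was 4.19 and 2.27 in wild type and 8.90 and 4.35 in ApcMin/+, with both ApcMin/+ libraries above both wild-type libraries. The log2 difference was 0.82 ± 0.92 (SE), with an adjusted p of 0.683 in limma, -0.03 after centring and 0.38 without ApcMin/+ replicate 1.

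Along *Dnmt3a* the mark fell into separate stretches. From the gene 5′ end to +700 bp the signal was 6.43 and 2.79 in wild type and 6.18 and 2.21 in ApcMin/+, and from +2100 to +3000 bp it was 3.76, 3.67, 9.34 and 4.05 in the same order. Between them, from +700 to +2100 bp, it was 0.498, 0.164, 0.386 and 0.472, from 1, 1, 2 and 4 fragments. The start at +1023 bp, inside the gap, had 158 CpG within 500 bp, the 99.9th percentile of all gene 5′ ends, and a GC content of 80.9%. Of the 193 gene 5′ ends with at least 75% GC, 68.9% reached a mean signal of 2, against 71.9% of those with 60 to 70%. The medians of the mean signal were 3.95 and 5.03. A mean over 2000 bp cannot show a gap inside the window, and the cause of the gap in *Dnmt3a* was not tested. The start at +85721 bp had a signal of 1.27 and 1.67 in wild type and 2.97 and 1.09 in ApcMin/+, with overlap. At *Dnmt3b* 87.0% of the signal was downstream of the 5′ end, in a region of 1400 bp that began 351 bp inside the gene.

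**Figure D3:**
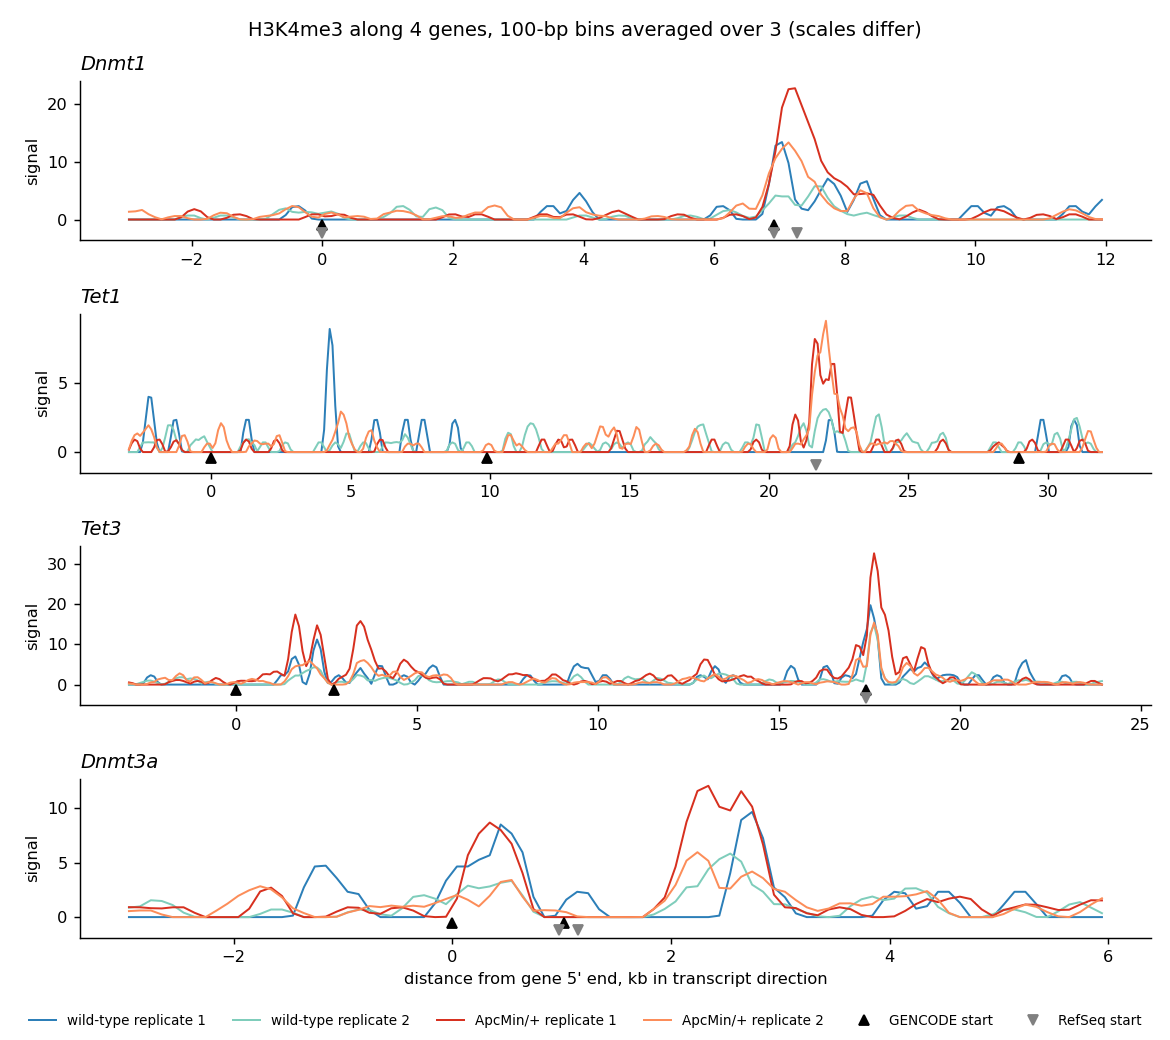
Signal (y axis, coverage, scales differ) in 100-bp bins averaged over 3 neighbours against the distance from the gene 5′ end in kb (x axis) for *Dnmt1*, *Tet1*, *Tet3* and *Dnmt3a*, 1 line per library, with annotated GENCODE starts (black triangles) and RefSeq starts (grey triangles). The mark is near 0 at the first start of *Dnmt1*, *Tet1* and *Tet3* and stands at inner starts, and at *Dnmt3a* it lies on both sides of a gap around +1023 bp.

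The mark stood at different places along the genes of the TET dioxygenases. *Tet2* (chr3:133463679-133545139, minus strand) had the largest difference of the tested genes at its 5′ end, with a signal of 2.50 and 1.08 in wild type and 12.5 and 2.69 in ApcMin/+, from 7, 10, 93 and 29 fragments. Both ApcMin/+ libraries were above both wild-type libraries, but ApcMin/+ replicate 2 exceeded wild-type replicate 1 by less than the difference between the wild-type libraries. The group means were 1.79 ± 1.00 and 7.62 ± 6.97 (SD, n = 2 each), so *Tet2* reached the limit of 2 only through ApcMin/+. As a description, the log2 difference was 1.39 ± 0.79 (SE), with an adjusted p of 0.683 in limma. After centring it was 0.53 ± 0.38 with both ApcMin/+ libraries still above both wild-type libraries, and without ApcMin/+ replicate 1 it was 0.45. Of the signal in the window 95.4% was downstream of the 5′ end, and the highest bin began at +920 bp. The RefSeq start at +749 bp lay nearer to that maximum, and its signal was 5.45 and 3.22 in wild type and 31.9 and 5.72 in ApcMin/+. The log2 difference there was 1.51 ± 1.20 (SE), with an adjusted p of 0.688 in limma, 0.64 after centring and 0.37 without ApcMin/+ replicate 1.

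*Tet1* (chr10:62804570-62908996, minus strand) stood near the background of the libraries at the gene 5′ end. That background, outside enriched regions and over 5000 bp from any gene start, was 0.279 and 0.322 in wild type and 0.198 and 0.298 in ApcMin/+. At its 5′ end *Tet1* had a signal of 0 and 0.314 in wild type and 0 and 0.564 in ApcMin/+, from 0, 3, 0 and 6 fragments. Its 2 other GENCODE starts, at +9878 and +28982 bp, had signals from 0 to 0.349. The RefSeq start at +21672 bp, examined after the values at the 5′ end were seen, had a signal of 0.349 and 1.65 in wild type and 3.66 and 3.75 in ApcMin/+, from 1, 16, 27 and 41 fragments. Here the ApcMin/+ libraries were alike, and both lay above both wild-type libraries, as at 37.8% of the 11381 RefSeq starts whose mean signal reached 2. The wild-type mean was 1.0 and the ApcMin/+ mean 3.7, so this start reached the limit of 2 only through the genotype in which it is high. As a description, the log2 difference was 1.31 ± 0.61 (SE), with an adjusted p of 0.688 in limma, and 1.33 without ApcMin/+ replicate 1. Without that library the difference lay between -0.36 and 0.45 at the 5′ ends of the 7 tested genes, and between 0.02 at *Tet3* +17409 bp and 0.66 at the RefSeq start of *Dnmt1* at +7265 bp over the other tested inner starts. Because of how the *Tet1* start was chosen and passed the limit, these ranges do not show that it stands out. Without wild-type replicate 1, where the window held 1 fragment, the difference at the *Tet1* RefSeq start was 0.83. After centring it was 0.45 ± 0.58, and the groups overlapped.

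*Tet3* (chr6:83362373-83459084, minus strand) had a signal of 0 and 0.105 in wild type and 1.03 and 0.549 in ApcMin/+ at the gene 5′ end, from 0, 1, 8 and 6 fragments, too few for a fold change. At +2692 bp the signal was 2.86 and 1.91 in wild type and 7.66 and 3.02 in ApcMin/+, and both ApcMin/+ libraries were higher, ApcMin/+ replicate 2 only slightly so. At +17409 bp it was 4.53 and 2.99 in wild type and 10.5 and 3.78 in ApcMin/+, and the groups overlapped. The log2 differences were 0.82 ± 0.81 and 0.66 ± 0.98 (SE), each with an adjusted p of 0.688 in limma, -0.04 and -0.20 after centring, and 0.26 and 0.02 without ApcMin/+ replicate 1. The widest enriched region of the 10 genes, 4300 bp (chr6:83438601-83442900), lay over the start at +17409 bp.

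*Tdg* (chr10:82629828-82650799, plus strand), which encodes the thymine DNA glycosylase that removes oxidized methylcytosine, had a signal of 2.79 and 2.01 in wild type and 11.7 and 3.0 in ApcMin/+. Both ApcMin/+ libraries were above both wild-type libraries, ApcMin/+ replicate 2 by less than the difference between the wild-type libraries. The group means were 2.4 ± 0.552 and 7.35 ± 6.14 (SD, n = 2 each). The log2 difference was 1.08 ± 0.86 (SE), with an adjusted p of 0.683 in limma, and 0.22 after centring. The centred log2 values were -0.55 and -0.43 in wild type and -0.16 and -0.37 in ApcMin/+, so the groups were only narrowly apart. Without ApcMin/+ replicate 1 the log2 difference was 0.25. *Tdg* was the only gene of the 7 whose mark was about even on both sides of the 5′ end, with 52.4% of the signal downstream in a region of 2000 bp.

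*Mbd1* (chr18:74267605-74282732, plus strand) and *Mbd2* (chr18:70568189-70626131, plus strand) encode methyl-CpG binding proteins that recruit repressor complexes. *Mbd1* had the highest mean signal of the 10 genes, 7.19, with 3.57 and 3.0 in wild type and 18.3 and 3.93 in ApcMin/+, from 10, 29, 135 and 43 fragments. Both ApcMin/+ libraries were above both wild-type libraries, and the log2 difference was 1.19 ± 1.03 (SE), with an adjusted p of 0.683 in limma, 0.34 ± 0.29 after centring and 0.21 without ApcMin/+ replicate 1. The mark began after the 5′ end, with 99.6% of the signal downstream and the highest bin at +740 bp. At *Mbd2* the signal was 2.28 and 0.987 in wild type and 4.91 and 2.47 in ApcMin/+, and ApcMin/+ replicate 2 was only slightly above wild-type replicate 1. Its wild-type mean was 1.63, so *Mbd2* reached the limit of 2 only through ApcMin/+. The log2 difference was 0.83 ± 0.67 (SE), with an adjusted p of 0.683 in limma, -0.03 after centring and 0.44 without ApcMin/+ replicate 1, and the mark formed separate regions of 400 bp over the 5′ end and 1200 bp further inside.

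**Figure D4:**
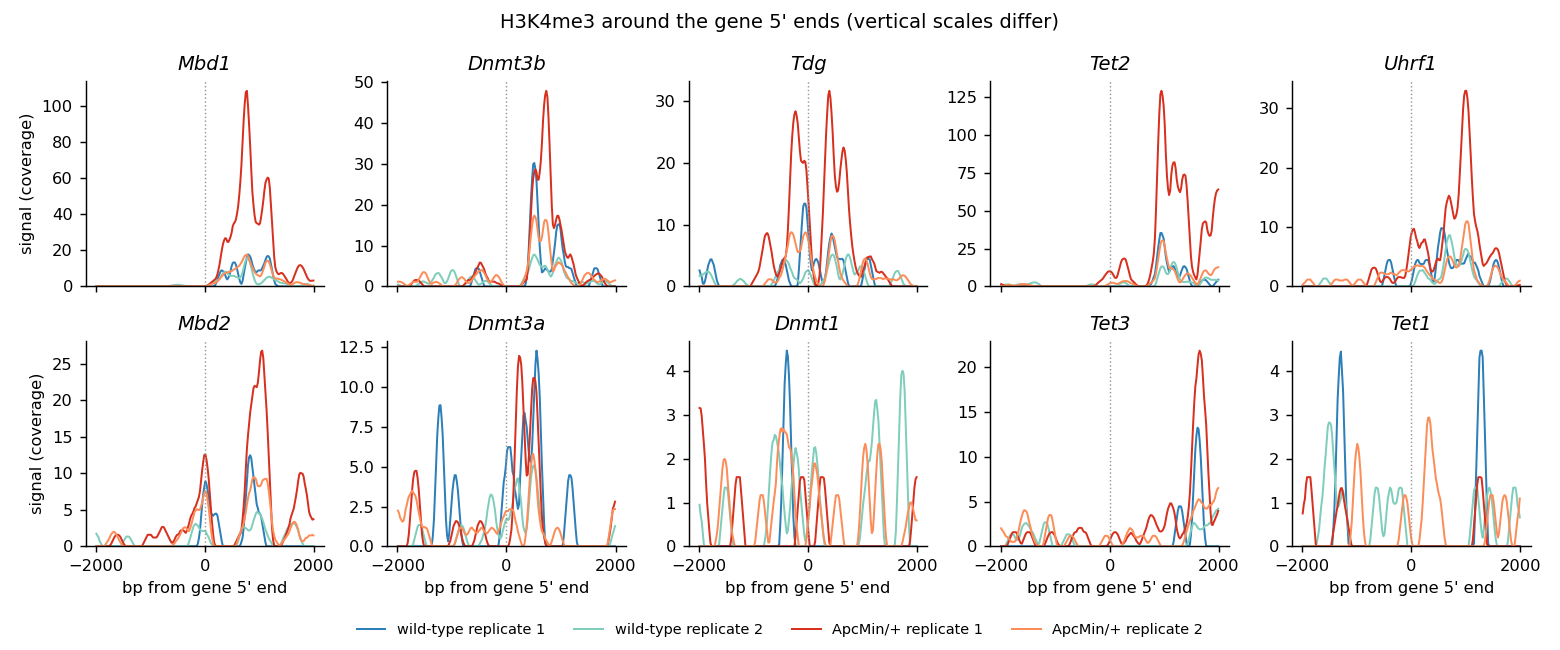
Signal (y axis, coverage, scales differ) in 20-bp bins averaged over 5 neighbours against the distance in bp from the gene 5′ end (x axis, dotted line at 0) for the 10 genes in order of mean signal, 1 line per library. The mark stands downstream of the 5′ end at *Mbd1*, *Dnmt3b*, *Tet2* and *Uhrf1* and on both sides at *Tdg*, and the lines at *Dnmt1* and *Tet1* are scattered single fragments.

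Across the genes, limma called 0 of the 7 tested promoters at an adjusted p of 0.05, and 0 of all 9931, so that percent called was 0. Without adjustment, 131 of the 9931 promoters had a p under 0.05 and none was among the 7. The ApcMin/+ pair exceeded the wild-type pair without overlap at 5 of the 7, namely *Dnmt3b*, *Tet2*, *Mbd1*, *Mbd2* and *Tdg*, and at 38.5% of all tested promoters. *Tet2* and *Mbd2*, with wild-type means of 1.79 and 1.63, reached the limit of 2 only through ApcMin/+, as did 13.3% of all tested promoters. The reverse held for 0 of the 7 and for 0.161% of all tested promoters. The median log2 difference of the 7 was 0.83 and that of all tested promoters 0.85. After centring, limma called 0 of the 7 and 0.121% of all tested promoters, both ApcMin/+ libraries were above at *Tet2* and *Tdg* (13.1% of all tested promoters) and below at *Dnmt3a* (14.3%), and the median of the 7 was -0.03. Without ApcMin/+ replicate 1 limma called 0 of the 7, and their median difference was 0.25 against 0.13 for all tested promoters. Without ApcMin/+ replicate 2, which left the library that stood apart as the only one of its genotype, it called 6 of the 7, all but *Dnmt3a*, and 65.2% of all tested promoters. With 2 libraries a group an exact permutation test of a single promoter cannot give a two-sided p below 0.333, and fewer cells with the mark cannot be told apart from less mark per cell.

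The order of the 7 genes within a library does not depend on how the libraries are scaled. Counted from the highest, *Mbd1* and *Dnmt3b* held ranks 1 and 2 in 3 of the libraries, *Tdg* rank 3 in all 4 and *Uhrf1* rank 4 or 5. In wild-type replicate 1, *Tdg* and *Dnmt3a* had 8 fragments each, and *Uhrf1*, *Tet2* and *Mbd2* had 7 each. Ranks 3 to 7 in that library are therefore within counting error. *Dnmt3a* held ranks 4 and 5 in wild type and rank 7 in both ApcMin/+ libraries, while *Tet2* held rank 6 in both wild-type libraries and ranks 2 and 4 in ApcMin/+. The signal of *Tet2* was 0.910 and 0.742 times that of *Dnmt3a* in wild type (95% exact counting intervals 0.270 to 2.76 and 0.284 to 1.73) and 5.17 and 1.97 times in ApcMin/+ (3.10 to 9.10 and 1.00 to 3.88). This pair was chosen after the values were seen, and the intervals of ApcMin/+ replicate 2 and both wild-type libraries overlapped. *Tet2* is among the 7 only through ApcMin/+, where it is high, so its ranks give no independent evidence of a difference.

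The neighbours of these genes in the methylation pathway were compared in 4 lists. Of 47 genes, 33 reached a mean signal of 2, and limma called 0 of them. The ApcMin/+ pair exceeded the wild-type pair without overlap at 11 of the 33, against 38.5% of all tested promoters, and after centring it was higher at 2 and lower at 6, against 13.1% and 14.3%. The median log2 difference of the 33 was 0.82, -0.04 after centring and 0.04 without ApcMin/+ replicate 1, and in the sentences on these lists 3 differences follow this order. Of 9 partners of maintenance and de novo methylation 4 were tested, with median differences of 0.77, -0.08 and -0.05. *Pcna*, the sliding clamp of replication, had the highest mean signal, 10.8, *Zfp57*, which protects methylation at imprinted genes, had the lowest, 0.174, and the helicase *Hells* differed most, with 2.44 and 1.89 in wild type and 8.76 and 4.78 in ApcMin/+ (log2 differences 1.25, 0.40 and 0.87), and *Uhrf2* least (0.53, -0.33 and -0.20). Of 12 readers of CpG 8 were tested, with medians of 0.80, -0.05 and 0.17, between *Mbd5* (1.03, 0.18 and 0.38), which also had the highest mean signal, 12.6, and *Zbtb33* (0.57, -0.29 and -0.07), which encodes Kaiso.

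Of 14 genes for base excision and repair 11 were tested, with median differences of 0.71, -0.14 and 0.04, from *Polb*, the repair polymerase (0.42, -0.44 and -0.29), to *Gadd45b* (1.15, 0.30 and 0.43), which had a signal of 4.32 and 3.67 in wild type and 17.2 and 5.73 in ApcMin/+. *Gadd45a* had the highest mean signal, 9.45. Of 12 genes that supply methyl groups or TET cofactors 10 were tested, with medians of 0.91, 0.06 and -0.04. *Mat2b*, a subunit of methionine adenosyltransferase, differed most, with 1.46 and 2.09 in wild type and 15.7 and 2.62 in ApcMin/+ (log2 differences 1.49, 0.64 and 0.39). Its wild-type mean was below the limit of 2, so it was tested only through ApcMin/+, where replicate 1 was far above replicate 2. *Shmt1* had the lowest mean signal, 1.27. All 33 differences were above 0 as deposited, as were 99.2% of those of all tested promoters, and after centring 15 of the 33 were above 0, against 48.8%.

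**Figure D5:**
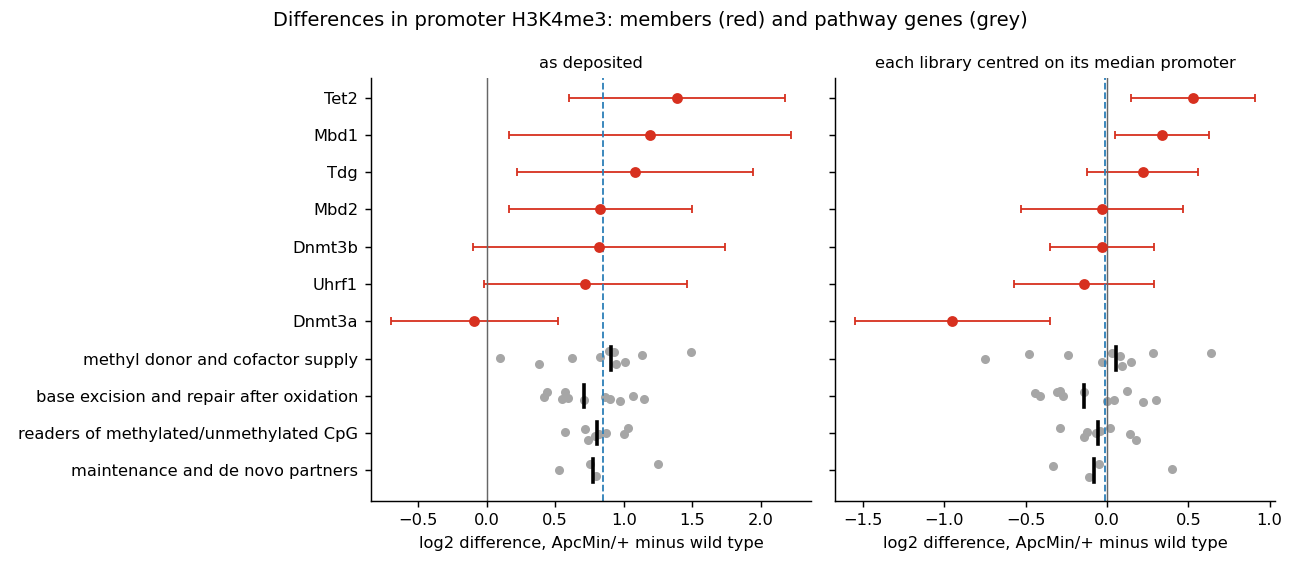
log2 difference, ApcMin/+ minus wild type (x axis), as deposited (left panel) and after the median promoter of every library was set to 0 (right panel), for the 7 tested genes (red, bars are the SE from limma) and for the tested genes of 4 pathway lists (grey points, black line at the median of the list). The dashed blue line is the median of all 9931 tested promoters, 0.85 on the left, and *Dnmt3a* is the lowest red point in both panels, -0.09 on the left and -0.95 on the right.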

How the data were processed

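H3K4me3 CUT&RUN tracks from 2 wild-type and 2 ApcMin/+ libraries were used, grouped by the genotype in the labels. According to the study's methods and the processing notes, read pairs were trimmed with Novocraft and aligned to mm10 with Bowtie2, duplicates were removed with Picard, and HOMER wrote the tracks. The values deposited by the authors are signal, that is coverage per base scaled to a common number of tags and to the fragment length, so no count model was applied. Fragments in a window were obtained from its summed signal and the sum of the track per tag, and intervals (95%, exact) cover counting error only.

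The signal was averaged over 1000 bp on each side of the 5′ end of 21938 protein-coding genes (GENCODE M21), of 28772 GENCODE start clusters, in which starts within 1000 bp were merged, and of 32851 RefSeq starts. The RefSeq promoter table held 8 of the 10 genes, without *Mbd1* and *Mbd2*. Those whose mean signal reached 2 (9931 gene promoters) entered limma 3.58.1, with an intensity trend (R 4.3.3), on log2(signal + 1), ApcMin/+ minus wild type, with Benjamini-Hochberg adjustment over all tested promoters, starts or RefSeq starts and a threshold of 0.05. Differences are on this log2 scale, which understates changes of low promoters. In simulated data at these depths, the promoter test found 91.5% of 200 promoters changed 4-fold as they stood and 91% once centred. Raising 1 ApcMin/+ library 3-fold throughout left 0% found if uncentred, whereas centring brought back 91.5%, with 1 false call. No other spread between replicates was varied. The real ApcMin/+ libraries had median signals of 13.2 and 4.18. These percentages therefore do not tell how often the test would find a true change here, and the lack of calls does not show unchanged promoters. Enriched regions were 100-bp bins in which the average of the tracks reached 5 times its genome-wide mean, merged across gaps of 500 bp, with 300 bp as the shortest length kept. Sequence was read from GRCm38, with RefSeq starts credited to the same build.

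All 10 genes and all their starts are named, and of each pathway list the genes with the highest and lowest mean signal and difference, except for items that are not reported here. The genes, lists and tests were chosen with earlier results of these data known. Other scalings, filters, pseudocounts, windows and starts, a replicate block and leaving out each library were tried. The RefSeq starts, centring with a library left out and crossed replicate numbers were added after the data were seen. Other antibodies, RNA-seq and older mice were not analysed here. Python 3.11.15, numpy 2.4.6, pandas 2.3.3, scipy 1.17.1 and matplotlib 3.10.9 were used.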

Additional observations from a re-analysis of the deposited data

How the results depend on the processing

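No setting that kept all 4 libraries called any of the 7 genes or of the tested pathway genes, and the adjusted p of the 7 genes in limma ranged from 0.533 to 1.0 over these settings. Centring, in which the median promoter of every library is set to 0, gave 12 calls among all promoters, left 2 of the 7 genes with both ApcMin/+ libraries above both wild-type libraries in place of 5 (13.1% of all tested promoters in place of 38.5%), and moved the median difference from 0.83 to -0.03 for the 7 and from 0.82 to -0.04 for the pathway lists. *Dnmt3b* (-0.03), *Uhrf1* (-0.14), *Mbd2* (-0.03), the *Tet3* starts at +2692 bp (-0.04) and +17409 bp (-0.20) and the *Dnmt1* start at +6909 bp (-0.01) changed sign under it. Quantile normalization gave 2 calls, both ApcMin/+ libraries above at 0 of the 7 (14.8% of all tested promoters), a pathway median of -0.01, and -0.03 at *Uhrf1* and -0.19 at *Tet3* +17409 bp. At a minimum mean signal of 5 only *Mbd1* was left of the 7, and 1 gene was without overlap. Scaling to background gave 0.12 at *Dnmt3a*. The cause of these changes was not tested.

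The replicate numbers were not taken to pair the libraries: nothing in the labels ties a wild-type to an ApcMin/+ library. The correlation of the replicate differences between the genotypes across tested promoters was 0.196, which cannot show a shift of a whole library. In both genotypes replicate 1 had fewer tags than replicate 2 and more of its signal in enriched regions. These shares were 22.6% and 11.9% in wild type and 43.2% and 16.4% in ApcMin/+. With a replicate block limma called 1 promoter, and with block and centring together 15. With block and centring the other values were those of centring alone (2 of the 7, medians of -0.03 and -0.04, and -0.03, -0.14, -0.03, -0.04, -0.20 and -0.01 for the genes and starts named above), since the block leaves differences as they are, and no call on the 10 genes changed.

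Leaving out 1 library gave 0 to 6478 calls among all promoters, 0 to 6 among the 7 genes and 0 to 20 among the pathway genes, with the highest counts all without ApcMin/+ replicate 2. ApcMin/+ is then the library that stands apart alone, assumed to vary like the wild-type pair, and *Dnmt3a* was the gene not called. Pathway medians ranged from 0.04 without ApcMin/+ replicate 1 to 1.5 without ApcMin/+ replicate 2, and *Dnmt3a* from -0.40 to 0.21. Without ApcMin/+ replicate 1 and with centring, limma called 0 promoters, the pathway median was -0.08 and *Tet3* +17409 bp was -0.10. Counting error limits the low promoters: the windows at the 5′ ends of *Dnmt1*, *Tet1* and *Tet3* held 0 to 9 fragments, and the median tested promoter held 13.0 in wild-type replicate 1, the library with the fewest tags.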
